A study of Homo sapiens with 24 samples.

Results

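The mRNAs of aminoacyl-tRNA synthetases were followed in 4 bladder cancer cell lines with and without exposure to MMC (mitomycin C, which crosslinks the strands of DNA). The genes were taken from a list of 35 symbols, 19 for cytosolic and 16 for mitochondrial enzymes, and matched by symbol to a table of 58381 gene IDs. Older symbols lacking the final 1 (AARS for AARS1) were matched to the present names. All 35 genes were found, and all 35 passed the filter on low counts.

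Each synthetase joins an amino acid to the transfer RNAs that carry it to the ribosome. Cells translate messages in the cytosol and, with a separate set of transfer RNAs, inside mitochondria, and most amino acids have a synthetase gene for each compartment. Some genes serve more widely: GARS1 and KARS1 make both the cytosolic and the mitochondrial enzyme, EPRS1 joins glutamyl- and prolyl-tRNA synthetases in a single protein, and EARS2 charges both glutamate and glutamine transfer RNAs in mitochondria. A group of the cytosolic enzymes is held in the multisynthetase complex, a particle assembled on scaffold proteins. The transcription factor ATF4, made when amino acids run short or the endoplasmic reticulum is stressed, is known to act on several genes for cytosolic synthetases.

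The lines were T24, 5637, TCC-SUP and CLS-439, all described in the labels as bladder cancer lines. Each gave an untreated group and a group exposed to 75 uM MMC for 1 h, with RNA taken 15 h after treatment, and each of the 8 groups held 3 libraries, numbered 1, 3 and 4. Values by library are given below in that order. Library totals lay between 13791428 and 28821665 counted reads, and the 35 genes held 0.349% to 0.559% of them. The lowest count of any of these genes in any library was 24. Levels are given in CPM, read counts scaled to a common library total after TMM scaling, a correction for library composition. They are shares of a library, so fewer cells of a kind and less RNA per cell cannot be told apart, and a change in total RNA per cell would not be seen.

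The CLS-439 libraries stood apart before any treatment was considered. Genes of the mitochondrial genome held 0.0238% to 0.0283% of their reads, against 3.21% to 7.40% in the other 18 libraries, and the share of processed pseudogenes was 2.97% to 3.25%, where no other library passed 0.272%. The source of this difference was not tested. The main results therefore concern T24, 5637 and TCC-SUP, CLS-439 is described on its own, and counts are also given from a fit without it. Of 8 epithelial markers, the number at 10 CPM or more in every library of a line was 5 for T24, 8 for 5637, 6 for TCC-SUP and 4 for CLS-439. KRT8, KRT18 and KRT7, keratins of simple epithelia, were among them in all 4 lines. KRT5, a basal keratin, did not exceed 0.0499 CPM (T24), 1.19 CPM (TCC-SUP) or 0.341 CPM (CLS-439), whereas 5637 held at least 429 CPM. CDH1, the epithelial cadherin, was at or below 0.108 CPM in T24 and 2.5 in CLS-439. EPCAM, an epithelial adhesion protein, lay between 1.05 and 5.8 CPM in T24 and TCC-SUP, and KRT19 and the urothelial factor GATA3 were at or below 3.06 and 2.27 CPM in CLS-439.

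Markers of other cell types moved with treatment. The summed level of 6 such genes went from 4140 to 5620 CPM in untreated to 2070 to 3330 CPM in treated TCC-SUP libraries, and from 1530 to 1870 CPM to 984 to 1230 CPM in CLS-439. It went the other way in 5637, from 25.5 to 33.3 CPM to 55.7 to 74.1 CPM, and in T24, from 2.11 to 3.53 CPM to 3.74 to 7.52 CPM. COL1A1, a fibroblast collagen, made up most of the TCC-SUP sum, and its mean fell there from 4300 to 2400 CPM (log2 fold change -0.84, edgeR adjusted p = 0.00366), while it rose in 5637 (1.22) and T24 (0.89). The leukocyte gene PTPRC fell in TCC-SUP from 30.0 to 11.4 CPM (log2 fold change -1.40, edgeR adjusted p = 0.0011) and did not exceed 0.178 CPM in any library of the other lines. Of the 5 of these markers tested, none rose and 2 fell in TCC-SUP (median log2 fold change -0.82), and 1 rose and none fell in 5637 (0.93) and in T24 (0.30). Each median was that of a gene of low level that was not called. It was PECAM1 in TCC-SUP (mean 0.972 to 0.554 CPM), PDGFRB in 5637 (0.542 to 1.02) and COL3A1 in T24 (0.251 to 0.324). CD68, a macrophage gene, was at or below 0.49 CPM everywhere. The summed level of the 8 epithelial markers fell in 5637, from 6290 to 7410 CPM to 4050 to 5910 CPM. It fell in CLS-439 from 2540 to 2860 CPM to 1740 to 2270 CPM. The ranges overlapped in TCC-SUP (2010 to 2730, then 1140 to 2200 CPM) and T24 (5380 to 6930, then 3210 to 6930 CPM). Of these 8 genes, 2, 3 and 2 fell in T24, 5637 and TCC-SUP and none rose. KRT19 fell in each (-1.79, -0.94 and -0.82 on the log2 scale). The part of either set of markers in the synthetase results was not tested.

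In untreated cells, mRNAs for cytosolic synthetases were more abundant than those for mitochondrial ones when compared per kilobase of exon. Exon length here took in all annotated exons of a gene, not those of a single transcript. For T24, 5637, TCC-SUP and CLS-439 the median cytosolic gene stood at 38.1, 39.0, 40.5 and 37.0 CPM per kb, and the median mitochondrial gene at 7.80, 9.54, 7.27 and 7.81. In single untreated libraries of T24, 5637 and TCC-SUP the ratio of the medians was between 3.67 and 6.11. KARS1, for lysine, led the cytosolic genes in T24 (85.8 CPM per kb) and in CLS-439 (70.4), FARSA, the catalytic chain for phenylalanine, led in 5637 (64.2), and AARS1 and TARS1, for alanine and threonine, shared the highest level in TCC-SUP (115 each). CARS1, for cysteine, was the lowest cytosolic gene per kb in all 4 lines, at 9.44, 8.12, 14 and 6.16 CPM per kb. That rank depended on its exon length of 10037 bases. In plain CPM, CARS1 was above FARSB in TCC-SUP (140 against 75.5) and just above AARS1 in 5637 (81.5 against 81.0). Among mitochondrial genes IARS2, for isoleucine, was highest in every line, between 27.3 and 39.2 CPM per kb. SARS2, for serine, was the lowest in T24 (1.13), TCC-SUP (1.21) and CLS-439 (1.66), while FARS2, for phenylalanine, was the lowest in 5637 (1.95). SARS2 shares 46.2% of its exonic bases with another annotated gene on the same strand, and the effect of this on its level was not tested.

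**Figure D1:**
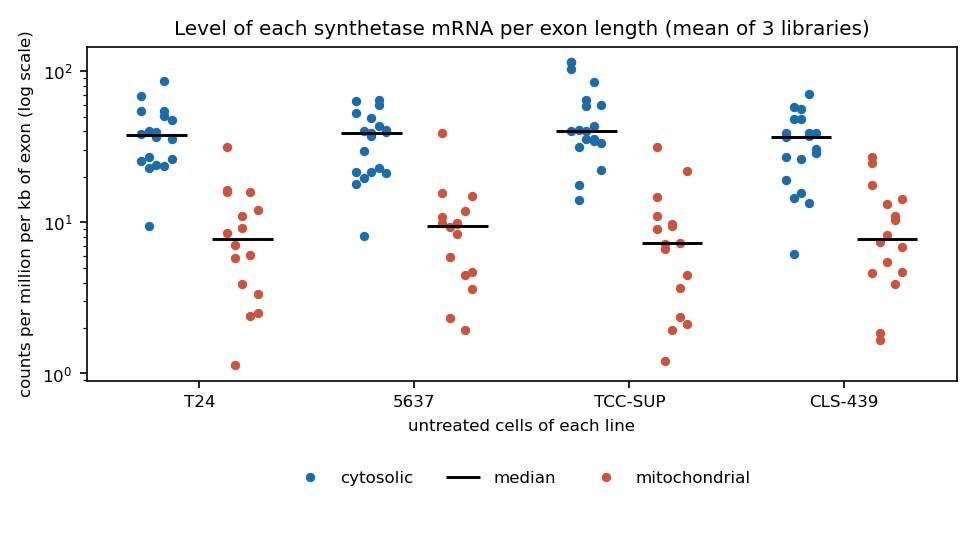
Level of each synthetase mRNA in untreated cells, in CPM per kb of exon on a log axis. Each point is the mean of 3 libraries for 1 gene, blue for cytosolic and red for mitochondrial enzymes, and black bars mark medians, which are 37.0 to 40.5 for cytosolic and 7.27 to 9.54 for mitochondrial genes.

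Most of these mRNAs differed in level among the untreated lines, as did most genes. In edgeR's quasi-likelihood test with Benjamini-Hochberg adjustment over all 20820 genes tested, 15 of 19 cytosolic and 10 of 16 mitochondrial genes differed among untreated T24, 5637 and TCC-SUP (adjusted p below 0.05, the threshold used throughout), where 70.1% of all genes did. GARS1, for glycine, averaged 160 ± 11.1 CPM in T24, 220 ± 5.60 in 5637 and 428 ± 33.7 in TCC-SUP (SD, n = 3 each), with no overlap between lines (edgeR adjusted p = 4.84e-12). AARS1 averaged 245 ± 14.4, 81.0 ± 5.44 and 515 ± 89.4 CPM in the same lines (SD, n = 3 each, edgeR adjusted p = 1.17e-09). WARS1, for tryptophan, averaged 152 ± 13.1, 136 ± 4.25 and 374 ± 77.3 CPM (SD, n = 3 each, edgeR adjusted p = 1.15e-09). TCC-SUP was highest for all 3 of these cytosolic genes. MARS2, the mitochondrial enzyme for methionine, ran the other way, at 11.8 ± 1.78, 29.3 ± 1.31 and 5.88 ± 0.872 CPM (SD, n = 3 each, edgeR adjusted p = 3.28e-10). Against TCC-SUP, 11 of 19 cytosolic genes were lower and 2 higher in 5637, where 29.5% and 27.1% of all genes were, and 10 were lower and 3 higher in T24, where 28.4% and 22.9% of all genes were. Of the 16 mitochondrial genes, 5 were higher and 2 lower than in TCC-SUP, both in 5637 and in T24. In T24 against 5637, 3 cytosolic genes were higher and 2 lower, where 22.1% and 24.5% of all genes were. Called in either direction were 46.6% of all genes between T24 and 5637, 51.3% between T24 and TCC-SUP and 56.6% between 5637 and TCC-SUP, and each pair of these comparisons shares a line's libraries.

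After MMC, cytosolic synthetase mRNAs moved mainly up in T24 and mainly down in 5637 and TCC-SUP. Among mitochondrial ones, falls outnumbered rises in all 3 lines. In T24 and TCC-SUP all mitochondrial falls called were in genes spanning at least 50 kb, as given below. In T24, 7 of 19 cytosolic genes rose and 2 fell, and 2 of 16 mitochondrial genes rose and 6 fell, where 28.6% of all genes were called, 15.2% higher and 13.4% lower. In 5637, 1 cytosolic gene rose and 5 fell, and 7 mitochondrial genes fell and none rose, against 29.4% of all genes called, 15.9% higher and 13.6% lower. In TCC-SUP, 1 cytosolic gene rose and 9 fell, and 2 mitochondrial genes rose and 5 fell, against 20.7% of all genes called, 9.57% higher and 11.1% lower. The falls in TCC-SUP stood beside those of COL1A1 (-0.84) and PTPRC (-1.40) and of the epithelial keratins KRT8 (-0.56) and KRT19 (-0.82). The median log2 fold change of the cytosolic genes was 0.22 in T24, -0.16 in 5637 and -0.21 in TCC-SUP, and that of the mitochondrial genes was -0.31, -0.45 and -0.34, with a median of 0.0 over all genes in each line. Without the CLS-439 libraries the counts called in T24, 5637 and TCC-SUP were 9, 4 and 9 for cytosolic and 4, 6 and 5 for mitochondrial genes, so the mitochondrial count in T24 went from 8 to 4. Single libraries also moved some counts: without any 1 untreated 5637 library 3 cytosolic genes were called there, without untreated T24 replicate 1, 3 or 4 the mitochondrial count in T24 was 4, 4 or 3, and without treated T24 replicate 4 it was 5. The mitochondrial count in TCC-SUP was 4, 3 or 3 without untreated replicate 1, 3 or 4, and 2 without treated replicate 3.

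**Figure D2:**
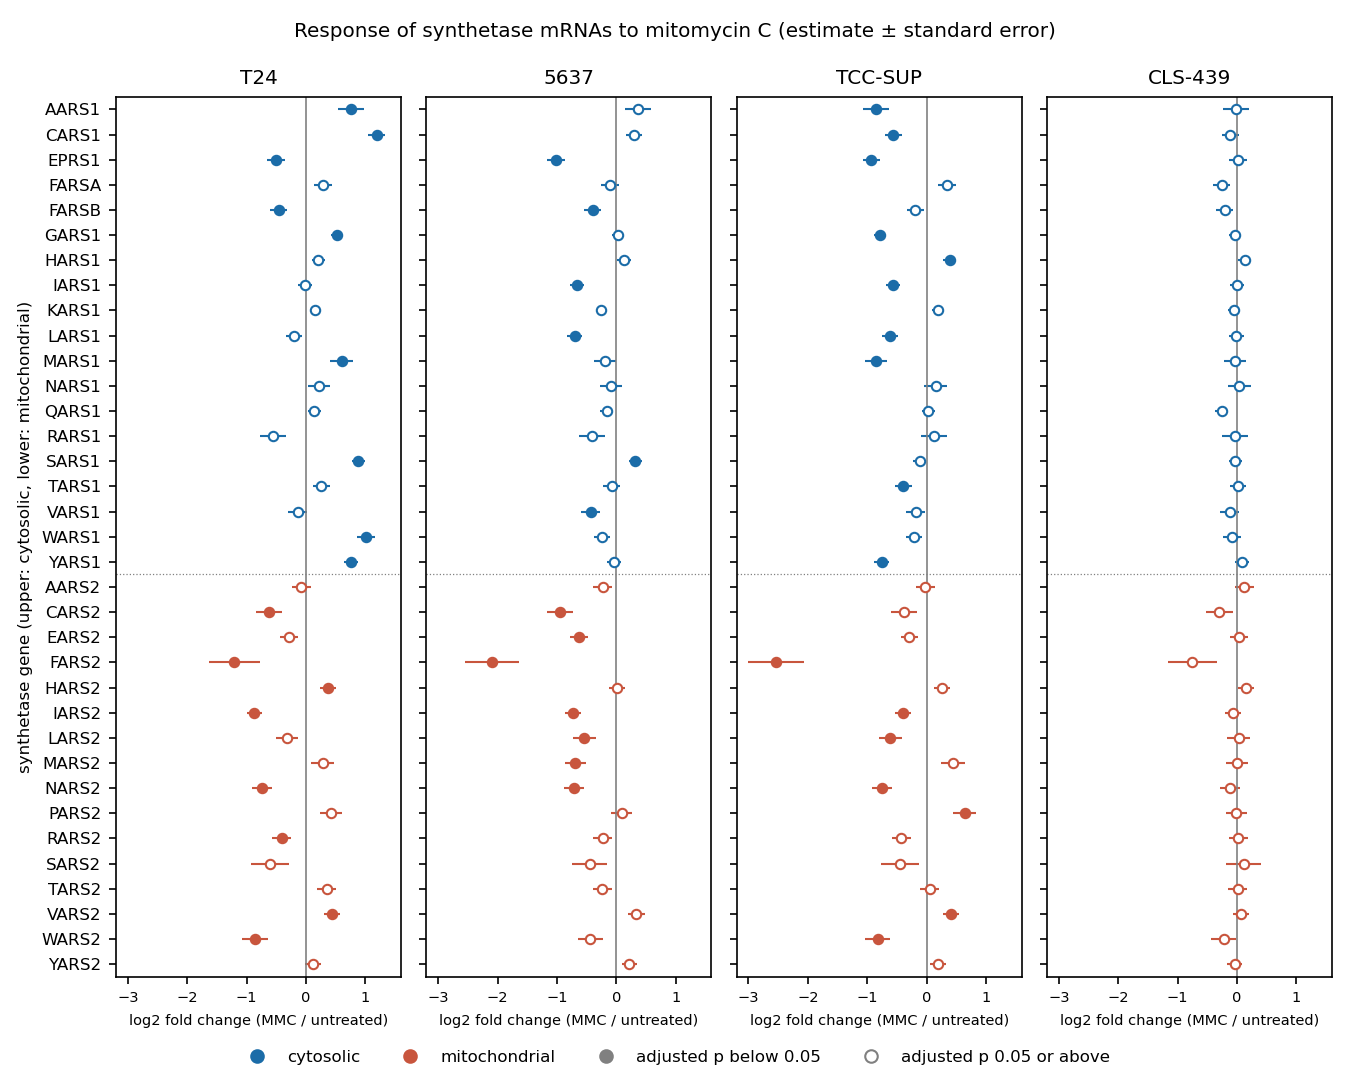
Log2 fold change after mitomycin C (MMC) of each of the 35 synthetase genes in each line, with its standard error. Filled points passed an adjusted p of 0.05: 17 genes in T24, 13 in 5637, 17 in TCC-SUP and none in CLS-439.

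Over single libraries the class medians did not move evenly. Against the untreated mean of its line, the median cytosolic gene shifted by 0.29, 0.21 and 0.24 on the log2 scale in the 3 treated T24 libraries, by -0.07, -0.13 and -0.25 in 5637, and by -0.28, -0.44 and -0.27 in TCC-SUP. The median mitochondrial gene shifted by 0.12, -0.57 and -0.28 in treated T24, by -0.29, -0.49 and -0.49 in 5637, and by -0.16, -0.39 and -0.20 in TCC-SUP. Treated T24 replicate 1 was the only treated library of these 9 in which the mitochondrial median was above the untreated mean.

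A group of 5 cytosolic genes, AARS1, CARS1, GARS1, MARS1 and YARS1, rose in T24 and fell in TCC-SUP. Of all genes tested, 39 (0.187%) had this pair of calls, and 5 of the 19 cytosolic synthetases (26.3%) did. No member had the opposite pair, which 17 genes (0.0817%) showed. The same 5 genes held both calls without the CLS-439 libraries, with DESeq2, with RLE scaling and with no filter on low counts. With T24 fitted alone MARS1 lost its T24 call. Without treated T24 replicate 1, AARS1 and MARS1 left the group, TARS1 joined it and 4 genes held both calls, and without the replicate 4 libraries of all groups only GARS1 did.

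AARS1 (chr16:70252295-70289543, minus strand, GRCh38) charges alanine transfer RNA. It was at 254, 252 and 228 CPM in untreated T24 and at 594, 285 and 364 CPM after MMC, so that all treated libraries were above all untreated ones, with the first far above the rest. The rise was 0.76 on the log2 scale (SE 0.22, edgeR adjusted p = 0.0111). In TCC-SUP it went the other way, from 552, 413 and 580 CPM to 393, 219 and 246 CPM, again without overlap, with a log2 fold change of -0.85 (SE 0.22, edgeR adjusted p = 0.00769). In 5637 the level was 86.9, 76.2 and 79.8 CPM untreated and 131, 79.4 and 104 CPM treated, groups that overlapped, and the log2 difference of 0.37 did not pass (adjusted p = 0.229). The T24 call was lost without treated replicate 1 (log2 fold change 0.42, adjusted p = 0.127) or untreated replicate 4 (0.70, adjusted p = 0.052), and the TCC-SUP call without treated replicate 3 (-0.69, adjusted p = 0.0663).

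CARS1 (chr11:3000922-3057613, minus strand) charges cysteine transfer RNA and had the largest rise of any member. Its level went from 97.2, 97.7 and 89.3 CPM to 264, 177 and 205 CPM in T24. Every treated library held more than any untreated one, a log2 fold change of 1.19 (SE 0.14, edgeR adjusted p = 1.11e-06). In TCC-SUP it fell from 147, 123 and 151 CPM to 109, 94.1 and 82.4 CPM (log2 fold change -0.56, SE 0.14, edgeR adjusted p = 0.00572). In 5637 all 3 treated libraries, at 115, 90.7 and 93.9 CPM, were above the untreated 89.4, 76.5 and 78.6 CPM, but the log2 difference of 0.30 did not pass (adjusted p = 0.116). No single library ended either call.

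GARS1 (chr7:30594681-30634033, plus strand), whose product charges glycine in both compartments, had even replicates. In T24 it went from 154, 153 and 173 CPM to 236, 231 and 224 CPM (log2 fold change 0.52, SE 0.10, edgeR adjusted p = 0.000248). In TCC-SUP it went from 451, 390 and 444 CPM to 258, 244 and 246 CPM (log2 fold change -0.78, SE 0.10, edgeR adjusted p = 1.08e-05). The treated libraries of both lines thus lay close together, between 224 and 258 CPM, although the untreated levels had differed. In 5637 the untreated libraries held 226, 219 and 215 CPM and the treated ones 241, 215 and 216 CPM, a log2 difference of 0.03 (adjusted p = 0.92).

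MARS1 (chr12:57475445-57517569, plus strand) is the methionine enzyme of the multisynthetase complex. In T24 it went from 177, 186 and 173 CPM to 369, 199 and 242 CPM (log2 fold change 0.60, SE 0.19, edgeR adjusted p = 0.0188). In TCC-SUP it went from 301, 248 and 305 CPM to 208, 133 and 133 CPM (log2 fold change -0.85, SE 0.19, edgeR adjusted p = 0.00247). Both pairs of groups were apart, but in T24 the gap rested mostly on treated replicate 1. Without that library the T24 value was 0.32 (adjusted p = 0.192), and without untreated replicate 1 or 4 it was 0.56 (0.0669) or 0.57 (0.0672). Of the exonic bases of MARS1, 12.4% are shared with genes on the other strand, among them DDIT3, a stress gene that rose by 2.89 on the log2 scale in T24 (68.2 ± 10.3 CPM after MMC, SD, n = 3). The library kit marks strand, but whether the counting used it is not given in the sources used here.

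YARS1 (chr1:32775237-32818153, minus strand) charges tyrosine transfer RNA. It went from 189, 197 and 198 CPM to 395, 284 and 311 CPM in T24 (log2 fold change 0.76, SE 0.12, edgeR adjusted p = 5.78e-05). It went from 277, 255 and 317 CPM to 185, 164 and 153 CPM in TCC-SUP (log2 fold change -0.76, SE 0.12, edgeR adjusted p = 0.000185). The groups were apart in both lines. In 5637 the treated libraries, at 213, 171 and 167 CPM, surrounded the untreated ones at 195, 185 and 186 CPM, with a log2 difference of -0.04 (adjusted p = 0.878).

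**Figure D3:**
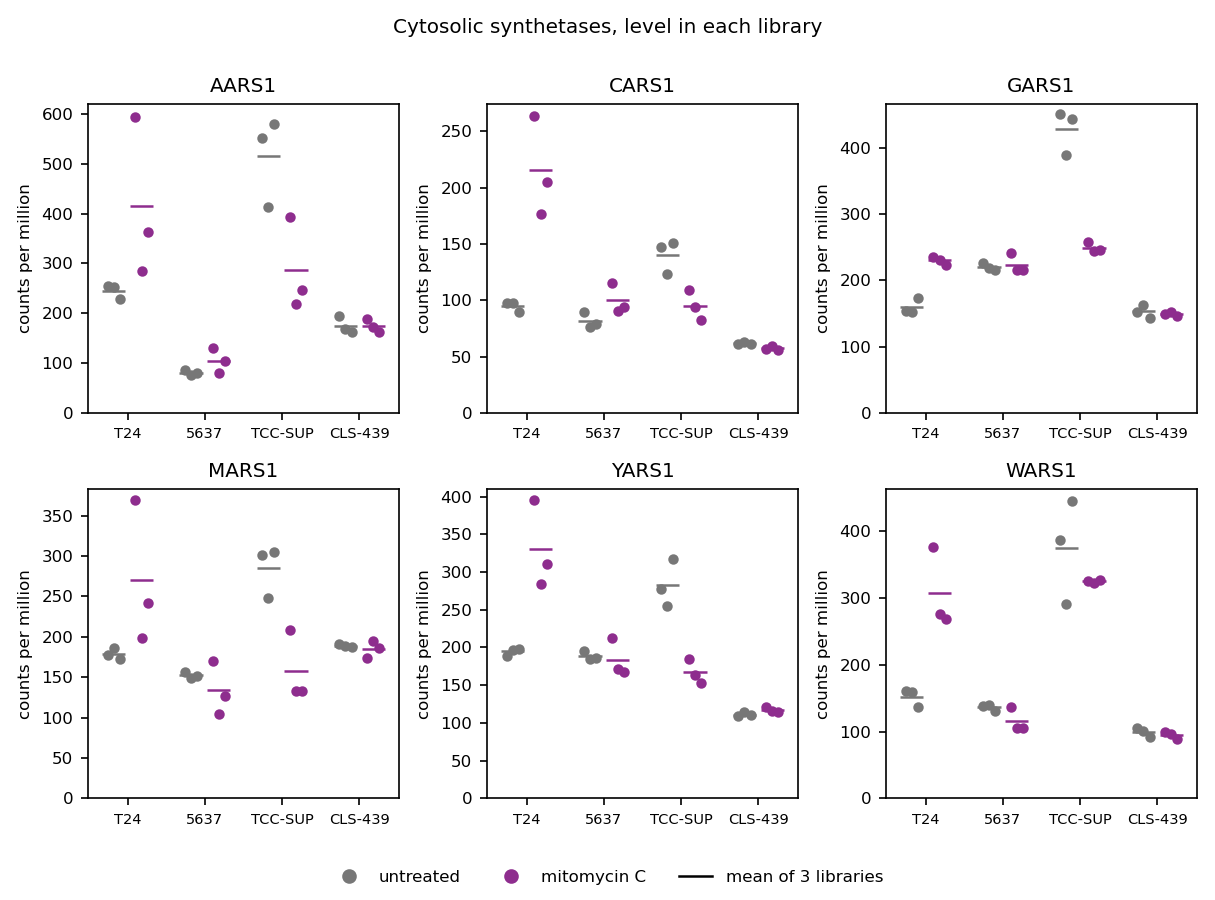
CPM of AARS1, CARS1, GARS1, MARS1, YARS1 and WARS1 in each of the 24 libraries, grey for untreated and purple for mitomycin C, with a bar at the mean of 3 libraries. The first 5 genes are higher after treatment in T24 and lower in TCC-SUP, and WARS1 is higher in T24 (268 to 376 against 137 to 160).

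The promoters of these genes were read for a short motif, TGATGNAA, the core of the element bound by ATF4 together with C/EBP proteins. RefSeq promoter windows (GRCh38.p14, 250 bases before to 50 after a transcript start) were matched for 30 of the 35 members, 16 cytosolic and 14 mitochondrial. Searched on both strands, the motif occurred in 3.62% of all 35116 windows and, counted by gene symbol, in 4.46% of 27305 symbols. It occurred in 8 of the 30 matched members, of which 7 were cytosolic (AARS1, CARS1, GARS1, IARS1, MARS1, NARS1 and TARS1) and 1 mitochondrial (YARS2). The windows below are shown because AARS1, CARS1, GARS1 and MARS1 are 4 of the 5 genes that moved in opposite directions in T24 and TCC-SUP. YARS1, the fifth, had no matched window and was not searched. Capitals mark the motif, which reads on the reverse strand in all 4 (TTGCATCA or TTTCATCA as printed), and a match is a description of the letters, not a site shown to be used.
AARS1, chr16:70289457-70289756, minus strand: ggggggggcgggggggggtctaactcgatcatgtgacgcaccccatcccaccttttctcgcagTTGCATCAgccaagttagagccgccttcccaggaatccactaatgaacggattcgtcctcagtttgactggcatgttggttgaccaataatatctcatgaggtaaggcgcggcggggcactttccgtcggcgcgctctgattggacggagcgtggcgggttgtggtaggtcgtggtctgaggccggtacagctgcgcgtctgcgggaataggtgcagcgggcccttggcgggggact
CARS1, chr11:3057374-3057673, minus strand: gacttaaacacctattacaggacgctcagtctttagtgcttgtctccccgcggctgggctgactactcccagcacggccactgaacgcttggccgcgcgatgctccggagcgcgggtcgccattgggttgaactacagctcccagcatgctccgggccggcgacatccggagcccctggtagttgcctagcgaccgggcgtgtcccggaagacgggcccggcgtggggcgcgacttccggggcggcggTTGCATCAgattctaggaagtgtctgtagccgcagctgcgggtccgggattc
GARS1, chr7:30594628-30594927, plus strand: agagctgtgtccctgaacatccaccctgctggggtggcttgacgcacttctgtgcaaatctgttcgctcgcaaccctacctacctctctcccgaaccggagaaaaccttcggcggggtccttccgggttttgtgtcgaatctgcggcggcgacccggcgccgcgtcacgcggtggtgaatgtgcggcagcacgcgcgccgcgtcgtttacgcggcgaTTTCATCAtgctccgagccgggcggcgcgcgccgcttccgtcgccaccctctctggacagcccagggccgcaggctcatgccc
MARS1, chr12:57487818-57488117, plus strand: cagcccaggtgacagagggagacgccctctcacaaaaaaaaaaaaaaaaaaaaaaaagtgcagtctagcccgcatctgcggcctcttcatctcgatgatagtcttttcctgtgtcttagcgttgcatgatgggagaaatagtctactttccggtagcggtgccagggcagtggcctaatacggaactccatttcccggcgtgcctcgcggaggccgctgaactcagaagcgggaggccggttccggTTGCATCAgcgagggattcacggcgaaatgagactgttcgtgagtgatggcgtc

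The match lay at the transcript start in CARS1 (bases -2 to 6 from the start) and MARS1 (-4 to 4), just upstream in GARS1 (-33 to -26) and farther upstream in AARS1 (-187 to -180). The 4 other matched members did not share the pattern of calls: IARS1 fell in TCC-SUP but had a log2 difference of -0.02 in T24, TARS1 fell in TCC-SUP and did not pass in T24 (0.26, adjusted p = 0.179), and NARS1 and YARS2 were called in none of the lines. Their matches are shown in short windows, with the motif in capitals, to set beside the 4 above.
IARS1, chr9:92293692-92293721, minus strand: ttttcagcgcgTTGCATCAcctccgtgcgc
NARS1, chr18:57621804-57621833, minus strand: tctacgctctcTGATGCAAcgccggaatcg
TARS1, chr5:33440956-33440985, plus strand: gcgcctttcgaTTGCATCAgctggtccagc
YARS2, chr12:32756076-32756105, minus strand: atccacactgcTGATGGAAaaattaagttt

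SARS1 and WARS1 also rose in T24 without falling in TCC-SUP. SARS1, for serine, went from 175, 188 and 184 CPM to 354, 307 and 345 CPM in T24 (log2 fold change 0.88, SE 0.11, edgeR adjusted p = 2.23e-06). It was the only cytosolic gene that rose in 5637, from 163, 162 and 148 CPM to 221, 180 and 188 CPM (log2 fold change 0.32, SE 0.11, edgeR adjusted p = 0.0284). The groups were apart in both lines, although the 5637 call was lost without any of 7 single libraries (adjusted p from 0.05 to 0.227). In TCC-SUP it held 232, 210 and 252 CPM untreated and 212, 219 and 206 CPM treated, overlapping groups with a log2 difference of -0.12 (adjusted p = 0.466).

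WARS1 (chr14:100333788-100376805, minus strand) charges tryptophan transfer RNA and is known as an interferon-inducible gene. In T24 it went from 160, 159 and 137 CPM to 376, 275 and 268 CPM, without overlap (log2 fold change 1.01, SE 0.15, edgeR adjusted p = 1.48e-05). In 5637 and TCC-SUP the log2 differences were -0.24 (adjusted p = 0.241) and -0.21 (adjusted p = 0.342), with overlapping libraries. Of 7 tested interferon response genes, 6 rose in T24, 3 in 5637 and 2 in TCC-SUP, and none fell, beside 15.2%, 15.9% and 9.57% of all genes higher. Their median log2 fold changes were 0.85, 0.58 and 0.34. IRF1, an interferon-induced transcription factor, rose in all 3 lines, by 1.83, 0.58 and 0.47 on the log2 scale. The WARS1 promoter window held a match to an interferon-stimulated element written as TTTC and TTTC with any 2 bases between, searched on both strands and found in 3.57% of all windows and 4.38% of symbols. Among the matched members EARS2 also held one. The WARS1 match is shown with the motif in capitals because WARS1 rose in T24 alone of the 3 lines.
WARS1, chr14:100375382-100375413, minus strand: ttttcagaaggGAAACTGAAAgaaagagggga

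EPRS1 fell in T24, 5637 and TCC-SUP, the only cytosolic gene to do so. This gene (chr1:219968601-220046658, minus strand) went from 171, 184 and 268 CPM to 131, 169 and 140 CPM in T24 (log2 fold change -0.50, SE 0.15, edgeR adjusted p = 0.0117). In 5637 it went from 185, 222 and 203 CPM to 108, 99.6 and 91.7 CPM (log2 fold change -1.02, SE 0.15, edgeR adjusted p = 1.3e-05). In TCC-SUP it went from 339, 354 and 370 CPM to 220, 160 and 178 CPM (log2 fold change -0.93, SE 0.15, edgeR adjusted p = 0.000139). All 3 pairs of groups were apart, but the T24 gap was narrow, and the call there was lost without treated replicate 1 (-0.42, adjusted p = 0.0502) or untreated replicate 4 (-0.28, adjusted p = 0.184).

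IARS1 and LARS1, the isoleucine and leucine enzymes of the complex, fell in 5637 and TCC-SUP. IARS1 went from 339, 375 and 369 CPM to 224, 233 and 227 CPM in 5637 (log2 fold change -0.66, SE 0.12, edgeR adjusted p = 0.000262) and fell by 0.57 on the log2 scale in TCC-SUP (edgeR adjusted p = 0.00228). LARS1 went from 161, 188 and 164 CPM to 98.4, 110 and 107 CPM in 5637 (log2 fold change -0.70, SE 0.13, edgeR adjusted p = 0.000236) and fell by 0.62 in TCC-SUP (edgeR adjusted p = 0.00156). Neither pair of groups overlapped. In T24 their log2 differences were -0.02 and -0.20, and neither passed.

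The other called cytosolic genes moved less. FARSB, the second chain of the phenylalanine enzyme, fell by 0.46 on the log2 scale in T24 (edgeR adjusted p = 0.017) and by 0.40 in 5637 (adjusted p = 0.0368), while FARSA, the chain it pairs with, was called in none of the 3 lines (0.29, -0.10 and 0.34). VARS1, for valine, fell by 0.43 in 5637 (adjusted p = 0.0483), and TARS1 fell by 0.39 in TCC-SUP (adjusted p = 0.0476). The FARSB calls were lost without replicate 4 of treated or untreated T24 (adjusted p = 0.0545 and 0.16) and any of the 6 libraries of 5637 (0.0546 to 0.118), and those of VARS1 and TARS1 without any of 12 (up to 0.161) and 20 (up to 0.235) single libraries. HARS1, for histidine, was the only cytosolic gene to rise in TCC-SUP, from 124, 153 and 138 CPM to 161, 193 and 189 CPM (log2 fold change 0.39, SE 0.11, edgeR adjusted p = 0.012). Its call was lost without any of 3 TCC-SUP libraries (adjusted p from 0.0521 to 0.0904), and 8.38% of its exonic bases are shared with genes on the other strand, HARS2 among them.

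Of the cytosolic genes, 5 were called in none of the 3 lines: FARSA, KARS1, NARS1, QARS1 and RARS1. Of all genes, 52.1% were called in none of them. KARS1, which serves both compartments, held 317, 365 and 365 CPM in untreated T24 and 363, 414 and 396 CPM after treatment, with log2 differences of 0.16, -0.25 and 0.19 in T24, 5637 and TCC-SUP. QARS1, for glutamine, had differences of 0.14, -0.16 and 0.03. RARS1, for arginine, differed widely among treated T24 libraries, at 62.3, 158 and 134 CPM against 146, 175 and 200 CPM untreated (log2 difference -0.56, SE 0.22, adjusted p = 0.065).

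The 7 cytosolic genes of the multisynthetase complex and the 12 outside it are given side by side, with no test of a difference between them. In T24, 1 of 7 complex members rose and 1 fell, and 6 of 12 others rose and 1 fell, beside 15.2% of all genes higher and 13.4% lower. In 5637, 3 of 7 complex members fell and none rose, and 2 of 12 others fell and 1 rose, beside 13.6% lower and 15.9% higher. In TCC-SUP, 4 of 7 complex members fell and none rose, and 5 of 12 others fell and 1 rose, beside 11.1% lower and 9.57% higher. Median log2 fold changes in these lines were -0.02, -0.41 and -0.57 for the complex members and 0.40, -0.06 and -0.20 for the others. Of the 3 scaffold genes, AIMP1 and AIMP2 were called in none of these lines, and EEF1E1, the smallest scaffold, fell in T24 from 16.2 ± 3.65 to 5.09 ± 0.45 CPM (SD, n = 3 each, log2 fold change -1.67, SE 0.25, edgeR adjusted p = 2.75e-05).

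Among the mitochondrial enzymes FARS2, IARS2 and NARS2 fell in T24, 5637 and TCC-SUP. With EPRS1 they made 4 of the 35 genes (11.4%) with 3 falls, against 4.23% of all genes. None rose in all 3 lines, against 4.09% of all genes. Without the CLS-439 libraries FARS2 lost its T24 call and 3 genes remained in this group. IARS2 lost its TCC-SUP call with no filter on low counts and with TCC-SUP fitted alone. EPRS1 and FARS2 lost their T24 calls with T24 fitted alone. Without untreated T24 replicate 4 only IARS2 and NARS2 had all 3 calls. Leaving out a replicate number in all groups gave 0 to 8 members with 3 falls.

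FARS2 (chr6:5261044-5829192, plus strand), for phenylalanine, had the largest fall of any member. In TCC-SUP it went from 10.8, 13.1 and 10.5 CPM to 3.13, 1.35 and 1.51 CPM (log2 fold change -2.53, SE 0.47, edgeR adjusted p = 0.000575). In 5637 it went from 10.2, 10.1 and 8 CPM to 4.07, 1.37 and 1.21 CPM (log2 fold change -2.09, SE 0.46, edgeR adjusted p = 0.00138). In T24 the untreated libraries held 11.6, 11.7 and 11.5 CPM and the treated ones 10.3, 1.68 and 3.19 CPM (log2 fold change -1.21, SE 0.43, edgeR adjusted p = 0.0381). The groups were apart in all 3 lines, and replicate 1 was the highest treated library in each. The T24 call was lost without any of 5 T24 libraries (adjusted p from 0.064 to 0.168). The lowest count behind these values was 24 reads.

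IARS2 (chr1:220094102-220148041, plus strand), for isoleucine, went from 122, 120 and 153 CPM to 63.1, 82.0 and 70.0 CPM in T24 (log2 fold change -0.87, SE 0.13, edgeR adjusted p = 2.77e-05). It went from 160, 175 and 156 CPM to 89.3, 110 and 96.7 CPM in 5637 (log2 fold change -0.73, SE 0.13, edgeR adjusted p = 0.000183). In TCC-SUP the step was smaller, from 132, 136 and 129 CPM to 103, 82.0 and 115 CPM (log2 fold change -0.40, SE 0.13, edgeR adjusted p = 0.0323). No groups overlapped, and the TCC-SUP call was lost without any of 4 TCC-SUP libraries (adjusted p from 0.0676 to 0.221).

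NARS2 (chr11:78435961-78574874, minus strand), for asparagine, fell by nearly the same amount in each line. It went from 46.3, 51.0 and 52.7 CPM to 36.4, 26.3 and 26.8 CPM in T24 (log2 fold change -0.74, SE 0.17, edgeR adjusted p = 0.00187). It went from 38.3, 38.0 and 36.2 CPM to 26.2, 21.4 and 21.0 CPM in 5637 (log2 fold change -0.71, SE 0.17, edgeR adjusted p = 0.00271). It went from 23.8, 22.0 and 23.6 CPM to 16.8, 9.28 and 15.1 CPM in TCC-SUP (log2 fold change -0.75, SE 0.17, edgeR adjusted p = 0.00345). Groups were apart in all 3 lines and no single library ended a call.

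**Figure D4:**
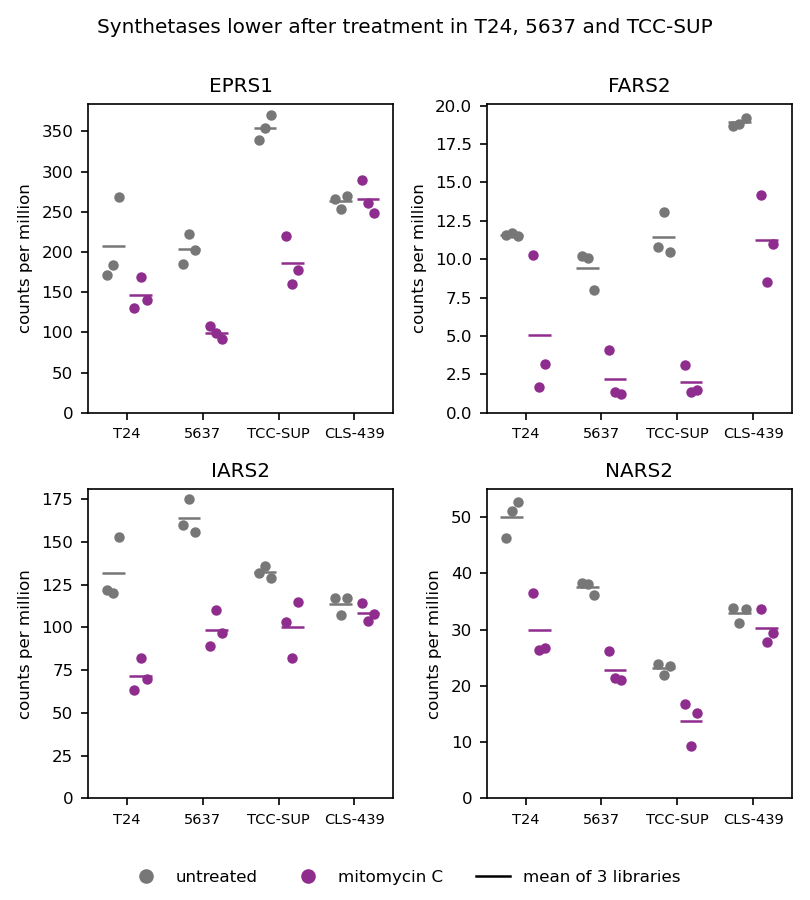
CPM of EPRS1, FARS2, IARS2 and NARS2 in each library, grey for untreated and purple for mitomycin C, with a bar at the mean of 3 libraries. Treated and untreated libraries do not overlap in T24, 5637 or TCC-SUP for any of the 4 genes, and 1 treated T24 library holds FARS2 at 10.3, near the untreated 11.5 to 11.7.

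CARS2, WARS2 and LARS2 fell in 2 of the 3 lines each. CARS2, for cysteine, went from 104, 94.6 and 96.1 CPM to 67.4, 42.6 and 42.3 CPM in 5637 (log2 fold change -0.95, SE 0.22, edgeR adjusted p = 0.00206) and fell by 0.62 in T24 (edgeR adjusted p = 0.038), where 60.8 CPM in treated replicate 1 overlapped the untreated libraries. WARS2, for tryptophan, went from 8.06, 9.23 and 11.9 CPM to 5.68, 4.64 and 5.83 CPM in T24 (log2 fold change -0.86, SE 0.22, edgeR adjusted p = 0.0043). WARS2 also fell by 0.82 on the log2 scale in TCC-SUP (edgeR adjusted p = 0.00693). LARS2, for leucine, fell by 0.54 in 5637 (edgeR adjusted p = 0.0384) and by 0.61 in TCC-SUP (adjusted p = 0.0275). The groups of WARS2 and LARS2 were apart in these lines. Leaving out any of 5 libraries of the line ended the T24 call of CARS2 (adjusted p up to 0.198) and the LARS2 calls in 5637 (up to 0.195) and TCC-SUP (up to 0.203), and leaving out TCC-SUP treated replicate 3 ended that of WARS2 (0.0669). Without the CLS-439 libraries the T24 call of CARS2 and both LARS2 calls were lost.

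EARS2, MARS2 and RARS2 were called lower in a single line each. EARS2 went from 53.1, 47.5 and 43.2 CPM to 31.8, 29.9 and 31.1 CPM in 5637, without overlap (log2 fold change -0.63, SE 0.15, edgeR adjusted p = 0.00205). MARS2 went from 28.3, 30.8 and 28.9 CPM to 23.4, 16.7 and 14.6 CPM in 5637, also without overlap (log2 fold change -0.69, SE 0.18, edgeR adjusted p = 0.0064, and 0.0525 without treated replicate 4). Its log2 differences in T24 and TCC-SUP had the other sign, at 0.28 (adjusted p = 0.303) and 0.44 (adjusted p = 0.113). RARS2, for arginine, fell by 0.41 in T24 (edgeR adjusted p = 0.0491), and its log2 difference in TCC-SUP was of like size (-0.43, adjusted p = 0.0529). The T24 call was lost without any of 18 single libraries (adjusted p up to 0.267) and without the CLS-439 libraries.

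Only HARS2, PARS2 and VARS2 among the mitochondrial genes had a rise called in some line. VARS2, for valine, went from 54.1, 55.9 and 45.0 CPM to 78.7, 62.2 and 69.9 CPM in T24 (log2 fold change 0.44, SE 0.14, edgeR adjusted p = 0.0181) and from 29.8, 31.6 and 32.5 CPM to 37.0, 49.9 and 38.0 CPM in TCC-SUP (log2 fold change 0.41, edgeR adjusted p = 0.0377). HARS2, for histidine, went from 43.9, 45.7 and 46.2 CPM to 59.5, 55.8 and 60.3 CPM in T24 (log2 fold change 0.37, SE 0.13, edgeR adjusted p = 0.0333). PARS2, for proline, went from 5.15, 4.85 and 4.90 CPM to 5.98, 9.88 and 7.39 CPM in TCC-SUP (log2 fold change 0.64, SE 0.19, edgeR adjusted p = 0.0165). No groups overlapped in these 4 cases. Each of these calls was lost without some single libraries (2 and 4 for VARS2 in T24 and TCC-SUP, 5 for HARS2 and 3 for PARS2, with adjusted p up to 0.105, 0.26, 0.111 and 0.167), and HARS2 and the TCC-SUP call of VARS2 also without the CLS-439 libraries. Of the exonic bases of VARS2, 22.0% are shared with GTF2H4 on the same strand, and for HARS2 11.7% are shared with HARS1 on the other strand. The remaining mitochondrial genes, AARS2, SARS2, TARS2 and YARS2, were called in none of the lines, with log2 differences between -0.61 and 0.35, and 46.2% of the exonic bases of SARS2 are shared with another annotated gene on the same strand.

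Set side by side by amino acid, the cytosolic gene had the higher log2 fold change in 11 of 15 pairs in T24 (median difference 0.75), 11 of 15 in 5637 (0.21) and 7 of 15 in TCC-SUP (-0.01). FARS2 takes part in 2 of these pairs, since the cytosolic enzyme has separate FARSA and FARSB chains. The widest gaps in T24 were those for tryptophan (WARS1 minus WARS2, 1.87) and cysteine (CARS1 minus CARS2, 1.81). In TCC-SUP the pairs ran from -1.29 for methionine (MARS1 minus MARS2) to 2.87 for phenylalanine (FARSA minus FARS2). Tyrosine showed the same turn as methionine between lines, with YARS1 minus YARS2 at 0.64 in T24 and -0.95 in TCC-SUP. No test was made of these differences between genes.

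The falls were concentrated in genes that span long stretches of the genome. Of the 35 members, 12 span at least 50 kb from first to last annotated exon, led by FARS2 (568.1 kb), LARS2 (160.9 kb), NARS2 (138.9 kb) and WARS2 (109.5 kb). In these 12, 8 fell and 1 rose in T24, 9 fell and none rose in 5637, and 9 fell and none rose in TCC-SUP. In the 23 shorter ones the counts were none fallen and 8 risen in T24, 3 fallen and 1 risen in 5637, and 5 fallen and 3 risen in TCC-SUP. The same split was present over all genes: 25.3%, 27.8% and 28.9% of genes of at least 50 kb fell in T24, 5637 and TCC-SUP, against 8.49%, 7.7% and 3.81% of shorter ones. Rises were found in 17.5%, 19.0% and 12.2% of shorter genes and in 9.58%, 8.27% and 3.05% of longer ones. Of the 7 long mitochondrial members, 6, 5 and 5 fell in T24, 5637 and TCC-SUP and none rose. Of the 9 shorter ones, none, 2 and none fell and 2, none and 2 rose (median log2 fold changes 0.28, -0.23 and 0.19). Of the 5 long cytosolic members, 2, 4 and 4 fell and 1, none and none rose. Of the 14 shorter ones, none, 1 and 5 fell and 6, 1 and 1 rose. Without the CLS-439 libraries the falls among the 12 long members were 5, 7 and 8. In T24 they were 5, 5 and 3 without untreated replicate 1, 3 or 4, 5 without treated replicate 4, and 3 with T24 fitted alone. Leaving out a replicate number in all groups gave 1 to 8, 4 to 10 and 1 to 11 long falls in T24, 5637 and TCC-SUP. Among the shorter members the rises in T24 were 5 without untreated T24 replicate 4 or with T24 alone, and 3 genes fell there without treated T24 replicate 1. The shorter falls in 5637 were 5 without treated T24 replicate 1 and 1 without treated 5637 replicate 4, and the single rise was lost without any of 7 libraries. In TCC-SUP the shorter falls were 3 without treated replicate 3, and the shorter rises were 1 without any untreated TCC-SUP library and none without treated replicate 3.

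CARS1, at 56.7 kb, was the only long member that rose in any line. The 5 shorter members that fell in TCC-SUP were AARS1, GARS1, MARS1, TARS1 and YARS1, which span 28.8 to 42.9 kb. Spearman's rho between span and log2 fold change, a description across genes that are not independent replicates, was -0.75, -0.50 and -0.86 over the 16 mitochondrial genes in T24, 5637 and TCC-SUP. Over the 19 cytosolic genes it was -0.06, -0.34 and -0.69, and over 20792 tested genes with a known span -0.16, -0.23 and -0.30. In CLS-439, where no member was called, rho was -0.56 over the mitochondrial, 0.15 over the cytosolic and -0.01 over all these genes. Genes in 1 library share its depth and composition, and the part of gene span in any member's change was not tested.

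**Figure D5:**
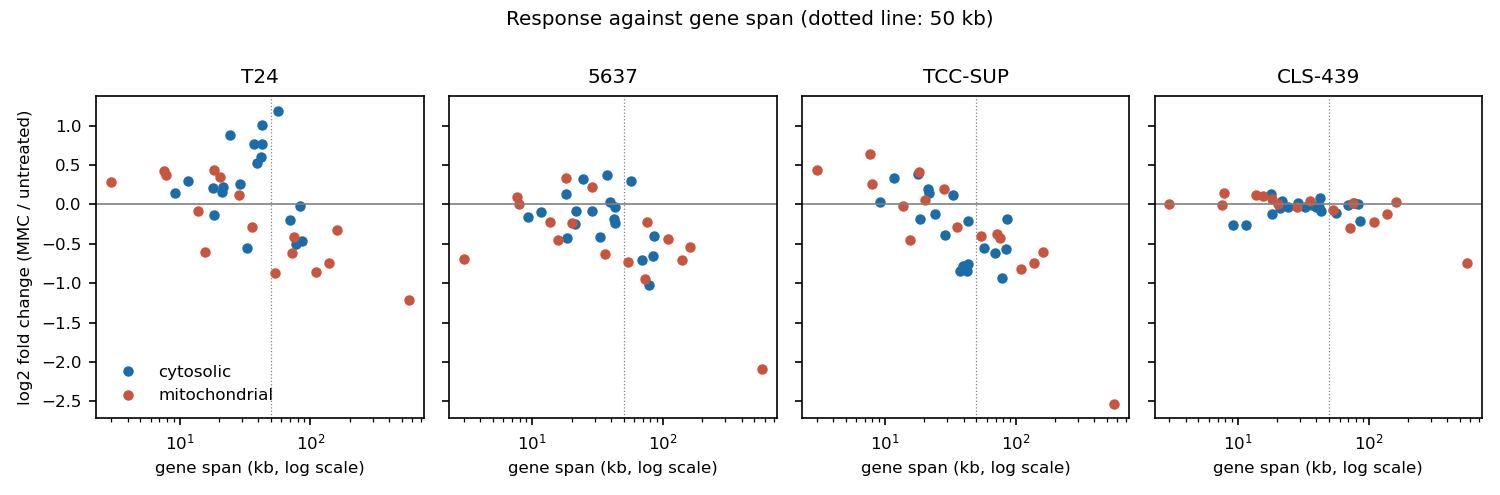
Log2 fold change after mitomycin C (MMC) against gene span in kb on a log axis, 1 panel per line, blue for cytosolic and red for mitochondrial genes, with a dotted line at 50 kb. FARS2 is the rightmost point at 568.1 kb, and in T24 the blue points above 0.5 lie between 24.3 and 56.7 kb.

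Whether the response itself differed among T24, 5637 and TCC-SUP was tested with an interaction term. It did for 8 of 19 cytosolic genes (AARS1, CARS1, GARS1, IARS1, MARS1, SARS1, WARS1 and YARS1) and for 1 of 16 mitochondrial genes (MARS2), where 6.86% of all genes were called. The smallest edgeR adjusted p-values were those of GARS1 (5.06e-06), CARS1 (1.41e-05), YARS1 (1.76e-05) and WARS1 (0.000321). The response in T24 was above that in TCC-SUP for 7 cytosolic genes and below it for none, against 2.42% and 1.38% of all genes, with differences from 1.00 (SARS1, SE 0.15) to 1.74 (CARS1, SE 0.20) on the log2 scale. It was above that in 5637 for 6 cytosolic genes, against 1.77% of all genes, led by WARS1 (1.25, SE 0.21, edgeR adjusted p = 0.000796). The response in 5637 was above that in TCC-SUP for AARS1, CARS1, GARS1 and YARS1, by 0.72 to 1.22, against 1.73% of all genes. MARS2 was the mitochondrial exception, with a T24 minus 5637 difference of 0.96 and a 5637 minus TCC-SUP difference of -1.13 on the log2 scale. Lower responses were called for 1.7% of all genes in T24 against 5637 and for 0.97% in 5637 against TCC-SUP. In either direction 3.47% of all genes were called between T24 and 5637, 3.79% between T24 and TCC-SUP and 2.7% between 5637 and TCC-SUP. For CARS1, GARS1 and YARS1 the order T24, 5637, TCC-SUP thus held with each step past the test. For AARS1 the step from T24 to 5637 was not called. The MARS2 call among the 3 lines was lost without untreated 5637 replicate 3 or treated 5637 replicate 4, and the IARS1 call held under 11 of 32 other settings. Without the replicate 4 libraries of all groups only the GARS1 call was kept. Those of AARS1, CARS1, MARS1, SARS1, WARS1 and YARS1 were lost there (edgeR adjusted p from 0.0614 to 0.494). MARS2 and IARS1 were also lost without the replicate 3 libraries. Each pair of these comparisons shares the libraries of a line.

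In CLS-439 no member was called by edgeR or by DESeq2, where edgeR called 0.62% of all genes, 0.298% higher and 0.322% lower. At an unadjusted p below 0.05 there was 1 cytosolic gene, QARS1 (log2 difference -0.26, SE 0.11, adjusted p = 0.514), and no mitochondrial gene. Median log2 differences were -0.03 for cytosolic and 0.0 for mitochondrial genes. AARS1 held 194, 169 and 163 CPM untreated and 189, 173 and 162 CPM treated, and GARS1 153, 163 and 144 against 150, 152 and 146 CPM, both overlapping. FARS2 held 18.7, 18.8 and 19.2 CPM untreated and 14.2, 8.53 and 11 CPM treated. Its groups were apart, with a log2 difference of -0.75 (SE 0.42, adjusted p = 0.75), and it passed when CLS-439 was fitted alone (adjusted p = 0.0356). In a contrast added after the data were seen, the CLS-439 response was above the mean of the other 3 for EPRS1, LARS1, IARS2 and NARS2, by 0.50 to 0.83, and below it for SARS1 (-0.39), 5 of 35 members, where 10.6% of all genes were called (4.78% higher and 5.78% lower).

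Genes that respond to amino acid shortage through ATF4 were set beside the synthetases. Of 18, 13 rose and none fell in T24 (median log2 fold change 1.22), 8 rose and 3 fell in 5637 (0.44), and 1 rose and 5 fell in TCC-SUP (-0.45), with none called in CLS-439. Of all genes, 15.2% rose and 13.4% fell in T24, 15.9% and 13.6% in 5637, and 9.57% and 11.1% in TCC-SUP. ATF4 itself rose by 0.58 in T24 (353 ± 41.8 to 526 ± 134 CPM, SD, n = 3 each, edgeR adjusted p = 0.0184) and fell by 0.99 on the log2 scale in TCC-SUP (557 ± 48.6 to 280 ± 83.4 CPM, edgeR adjusted p = 0.000515). In 5637 its log2 difference was -0.19 (adjusted p = 0.47). PSAT1, an enzyme of serine synthesis, and STC2, a secreted glycoprotein, likewise rose in T24 (0.51 and 1.51) and fell in TCC-SUP (-0.80 and -0.59), while STC2 rose in 5637 (0.71). ASNS, asparagine synthetase, rose in all 3 lines (3.97, 3.36 and 1.63) from low levels of 0.441, 0.658 and 3.58 CPM. CHAC1, which breaks down glutathione, rose in T24 and 5637 (3.48 and 2.82) and had a difference of -0.83 in TCC-SUP (adjusted p = 0.0525). The amino acid transporter genes SLC7A5 and SLC3A2 did not move together: SLC3A2 rose in T24 (1.15), and SLC7A5 fell in 5637 (-1.15) and TCC-SUP (-0.73).

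Other genes of the charging and decoding machinery are given by the same counts, to be read beside those shares of all genes. Of 4 cytosolic elongation factor genes tested, leaving out EEF1E1, which is counted with the scaffolds, 1, 4 and 2 fell in T24, 5637 and TCC-SUP and none rose (median log2 fold changes -0.25, -0.58 and -0.39). EEF1A1, which delivers charged transfer RNAs to the ribosome, fell in all 3, from 4640 ± 759 to 3100 ± 575 CPM in T24 (SD, n = 3 each), by 0.58, 0.86 and 0.51 on the log2 scale. Of 9 mitochondrial translation factor genes, 2, 3 and none fell and none rose (medians -0.10, -0.39 and -0.16), with MTIF2, an initiation factor, lower in T24 (-0.49) and 5637 (-0.64). Of 4 genes for mitochondrial glutaminyl-tRNA amidation and formylation, only GATB was called, in 5637 (-1.01, SE 0.23, edgeR adjusted p = 0.00194). Its log2 differences in T24 and TCC-SUP had the same sign and fell just short, at -0.58 (edgeR adjusted p = 0.0589) and -0.62 (0.056). Of 6 selenocysteine and editing genes, 1 rose (PTRH2) and 2 fell in T24, and 1 fell in each of the other two. That 1 was DTD1, a deacylase that removes D-amino acids from transfer RNA, which fell by 1.13, 1.13 and 1.37 on the log2 scale in T24, 5637 and TCC-SUP.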

How the data were processed

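Reads counted per gene were deposited by the authors as 1 table of raw counts over 24 libraries. Per the submitters' processing notes, STAR 2.5.3a, featureCounts 1.6.2 and GRCh38 were used. How reads matching several places were handled, whether counting used strand and which annotation release served it are not given in the sources used for this work. Gene positions and overlaps came from GENCODE 29, which holds 58216 of the 58381 gene IDs, and promoter windows from RefSeq (GRCh38.p14).

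Genes were kept by edgeR's filterByExpr with the group as factor (20820 genes, 99.94% of reads). Counts were scaled by TMM, and edgeR 4.0.16 (R 4.3.3) fitted 8 groups over all 24 libraries with quasi-likelihood tests and Benjamini-Hochberg adjustment over all genes tested, leaving 16 residual degrees of freedom. Adjusted p below 0.05 was called. The script was tested on simulated data. Labels call the libraries biological replicates without naming separate cultures, so p-values measure the spread between these libraries, which may be technical. No 2 replicates agreed within counting noise (chi-square per gene 4.1 to 129).

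Alternatives were DESeq2 1.42.0, RLE scaling, no filter, a replicate block, fits without CLS-439 or on 1 line, and leaving out libraries or replicate numbers. Same-numbered libraries deviated together in 5637 (correlations 0.37, 0.20 and 0.56 over 10317 genes) and CLS-439 (0.42, 0.35 and 0.15), but not throughout in T24 (0.48, -0.28 and 0.54) or TCC-SUP (0.07, -0.05 and -0.28).

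The members, gene lists and tests were chosen with earlier results of these data known. Named in full were the 4 largest called rises and falls per line and class, members called alike in the 3 lines, the smallest p-values for differing responses and untreated levels, and PARS2, EARS2, GARS1, KARS1, QARS1 and EPRS1. The contrast of CLS-439 with the other lines, the recounts of call patterns and spans under other settings, and the count of elongation factors without EEF1E1, were added after the data were seen. No set test was run on the gene lists or markers. One gene of the interferon list is counted there but not reported here.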

Additional observations from a re-analysis of the deposited data

Results flagged for a closer look

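The response to MMC differed among T24, 5637 and TCC-SUP by the edgeR interaction test for 9 of 35 members, beside 6.86% of all genes. The Benjamini-Hochberg adjusted p was 5.06e-06 for GARS1, 1.41e-05 for CARS1, 1.76e-05 for YARS1, 0.000321 for WARS1, 0.000641 for SARS1, 0.0039 for MARS1, 0.00439 for AARS1 and 0.0383 for IARS1 among cytosolic genes, and 0.0152 for MARS2 among mitochondrial ones. The sign of the called responses turned between T24 and TCC-SUP for AARS1, CARS1, GARS1, MARS1 and YARS1. WARS1 and SARS1 rose in T24 and were not called in TCC-SUP.

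The CLS-439 response differed from the mean response of the other 3 lines, by the same edgeR fit, for EPRS1 (adjusted p = 0.00275), IARS2 (0.0131), LARS1 (0.0326), NARS2 (0.0468) and SARS1 (0.0485). The first 4 lay above that mean and SARS1 below it. These were 5 of 35 members, beside 10.6% of all genes (4.78% higher and 5.78% lower). The CLS-439 libraries also stood apart in mitochondrial genome and pseudogene reads, whose part in these differences was not tested.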

How the results depend on the processing

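Of 47 called gene responses none reversed. Losses numbered 0 with DESeq2, 0 with the replicate block, 2 with RLE scaling, 10 with no filter and 10 without CLS-439. Fits on a single line lost 8 of 17 calls in T24, 0 of 13 in 5637 and 4 of 17 in TCC-SUP. Without replicate 1, 3 or 4 they numbered 3, 21 and 35. Fits without a replicate number hold fewer libraries, and the causes of all these losses were not tested. The replicate block ended none of these calls, and with it the counts in T24, 5637 and TCC-SUP were 10, 6 and 10 for cytosolic and 9, 7 and 8 for mitochondrial genes. Mitochondrial counts moved by over 1.5 times in T24 (8 genes; 5 with no filter, 4 without CLS-439, 3 with T24 alone), in TCC-SUP (7; 4 with no filter, 4 with TCC-SUP alone) and in CLS-439 (0; 1 with CLS-439 alone). Mitochondrial responses differing among lines went from 1 to 2 with no filter. Leaving out a library or a replicate number gave these ranges for T24, 5637, TCC-SUP and CLS-439: cytosolic counts 5 to 11, 3 to 8, 2 to 10 and 0 to 0, and mitochondrial counts 1 to 10, 1 to 8, 0 to 11 and 0 to 1. Responses differing among lines ranged from 1 to 11 cytosolic and 0 to 2 mitochondrial genes, and untreated differences from 13 to 17 and 8 to 12. Low levels limit FARS2, SARS2, PARS2 and WARS2.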
